A study of Mus musculus with 18 samples.

Results

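The circadian clock genes described here are the activators Arntl, Npas2 and Clock with the repressor Cry1, and the genes Dbp, Tef, Nr1d1, Nr1d2, Per2 and Per3. They were picked by symbol and are 10 of the 46078 gene identifiers in each of 4 deposited tables of normalised read counts, 1 table per tissue. All 10 had reads in all 18 libraries and passed the level filter in each tissue.

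The libraries came from female mice in which Xist, the RNA that silences an X chromosome, had been deleted. Mutants were homozygous and controls heterozygous for the deletion, so no group was free of it. There were 3 mutant and 3 control libraries of primary tail-tip fibroblasts, whose age the sources used here leave out. Spleen, liver and brain were taken on postnatal day 1 and gave 2 mutant and 2 control libraries each, described as biological replicates. Nor do those sources give the strain, how the deletion was made, or the hour of day at which organs were taken or cells lysed. The table columns of the controls are named WT and the design text names heart where the sample labels name brain; the sample labels were followed, and the 5 neuron markers of the brain libraries summed to 3694 to 3801 in mutants and 3776 to 4322 in controls.

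In the mammalian clock the CLOCK or NPAS2 protein pairs with ARNTL (BMAL1), binds E-box sequences and drives the Per, Cry, Nr1d and PAR bZIP genes. PER and CRY proteins then hold back their own activator, and the REV-ERB receptors encoded by Nr1d1 and Nr1d2 repress Arntl, Npas2, Clock and Cry1 through ROR elements. The Arntl side and the Dbp side therefore peak at largely opposite times of day in adult mouse tissues. The ratio between them thus varies with the clock time of a sample. In mice, daily rhythms of peripheral organs are weak at birth and strengthen in the weeks that follow.

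Each library held 12.4 M to 29.2 M reads in genes. A single read was worth a signal of 0.0343 to 0.0751, where signal is the authors' scaled count, close to CPM. Xist was lower in every mutant library than in every control library of its tissue, at an average of 8.66% of the control level in fibroblasts, 7.22% in spleen and 0.576% in brain. Mutant livers, labelled homozygous too, kept 32.8% of it, with 178 and 257 in mutants, against 594 and 730 in controls. Several libraries stood apart: spleen mutant 1 had reads in 32381 genes against 25166 to 26940 in the other spleens, spleen control 1 had the highest sums of erythroid and proliferation markers among the spleens, and liver mutant 1 and liver control 1 had higher sums of both than liver mutant 2 and liver control 2.

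The promoters of 9 of the 10 genes were found in RefSeq (GRCm38.p6), as 13 windows from 250 bases before to 50 bases after a start site. They were searched on both strands for the elements through which the clock factors act. These were the E-box CACGTG, the related E-prime box CACGTT, the D-box TTATGTAA or TTATGCAA of the PAR bZIP factors, and the ROR core TAGGTCA or TGGGTCA. Among all 32851 promoters of the same length, 7.15% held the E-box, 4.68% the E-prime box, 1.66% the D-box and 6.45% the ROR core. 4 windows are shown, because together they hold all 4 elements, with the matches in capitals.
Arntl promoter, chr7:113207261-113207560, plus strand: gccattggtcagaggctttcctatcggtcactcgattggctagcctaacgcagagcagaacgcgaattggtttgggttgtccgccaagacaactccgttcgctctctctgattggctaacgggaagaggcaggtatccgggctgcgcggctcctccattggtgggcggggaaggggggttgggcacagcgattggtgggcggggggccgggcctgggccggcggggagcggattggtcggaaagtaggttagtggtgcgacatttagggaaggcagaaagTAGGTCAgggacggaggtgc
Cry1 promoter, chr10:85185005-85185304, minus strand: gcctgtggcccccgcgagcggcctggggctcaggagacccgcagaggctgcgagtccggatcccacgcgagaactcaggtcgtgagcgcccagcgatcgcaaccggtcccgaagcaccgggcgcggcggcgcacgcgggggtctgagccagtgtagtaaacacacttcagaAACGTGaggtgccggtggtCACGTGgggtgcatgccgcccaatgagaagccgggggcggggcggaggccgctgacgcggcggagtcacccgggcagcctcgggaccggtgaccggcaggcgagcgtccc
Per3 promoter, chr4:151044616-151044915, minus strand: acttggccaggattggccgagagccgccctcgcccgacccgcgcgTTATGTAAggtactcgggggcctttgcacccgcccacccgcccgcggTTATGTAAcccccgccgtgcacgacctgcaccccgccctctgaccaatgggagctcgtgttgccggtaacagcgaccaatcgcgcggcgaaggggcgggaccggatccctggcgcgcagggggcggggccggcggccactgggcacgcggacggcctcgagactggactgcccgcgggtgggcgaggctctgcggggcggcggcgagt
Nr1d1 promoter, chr11:98775328-98775627, minus strand: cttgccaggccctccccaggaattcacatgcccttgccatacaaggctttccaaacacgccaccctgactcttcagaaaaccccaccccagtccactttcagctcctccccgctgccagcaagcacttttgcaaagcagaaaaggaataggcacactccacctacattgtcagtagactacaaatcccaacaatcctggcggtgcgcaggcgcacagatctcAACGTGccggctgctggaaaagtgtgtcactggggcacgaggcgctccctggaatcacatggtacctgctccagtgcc
The Arntl window shown held 1 ROR core, TAGGTCA, which starts 30 bases after the start site. The other Arntl window, chr7:113207215-113207514, held none of the letters searched. Only these exact letters were searched, so forms that differ by a base are missed. The Cry1 window held an E-box 60 bases and an E-prime box, in its reverse form AACGTG, 79 bases before the start. The Per3 window held 2 D-boxes, TTATGTAA, at 205 and 158 bases before the start. The Nr1d1 window held 1 E-prime box, again as AACGTG, 28 bases before the start. Both Tef windows held an E-box, 127 and 138 bases before their starts. The Npas2, Clock, Dbp and Nr1d2 windows held none of these letters; Per2 was not in the promoter table. A match is a run of letters in this window and was not tested as a binding site.

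**Figure D1:**
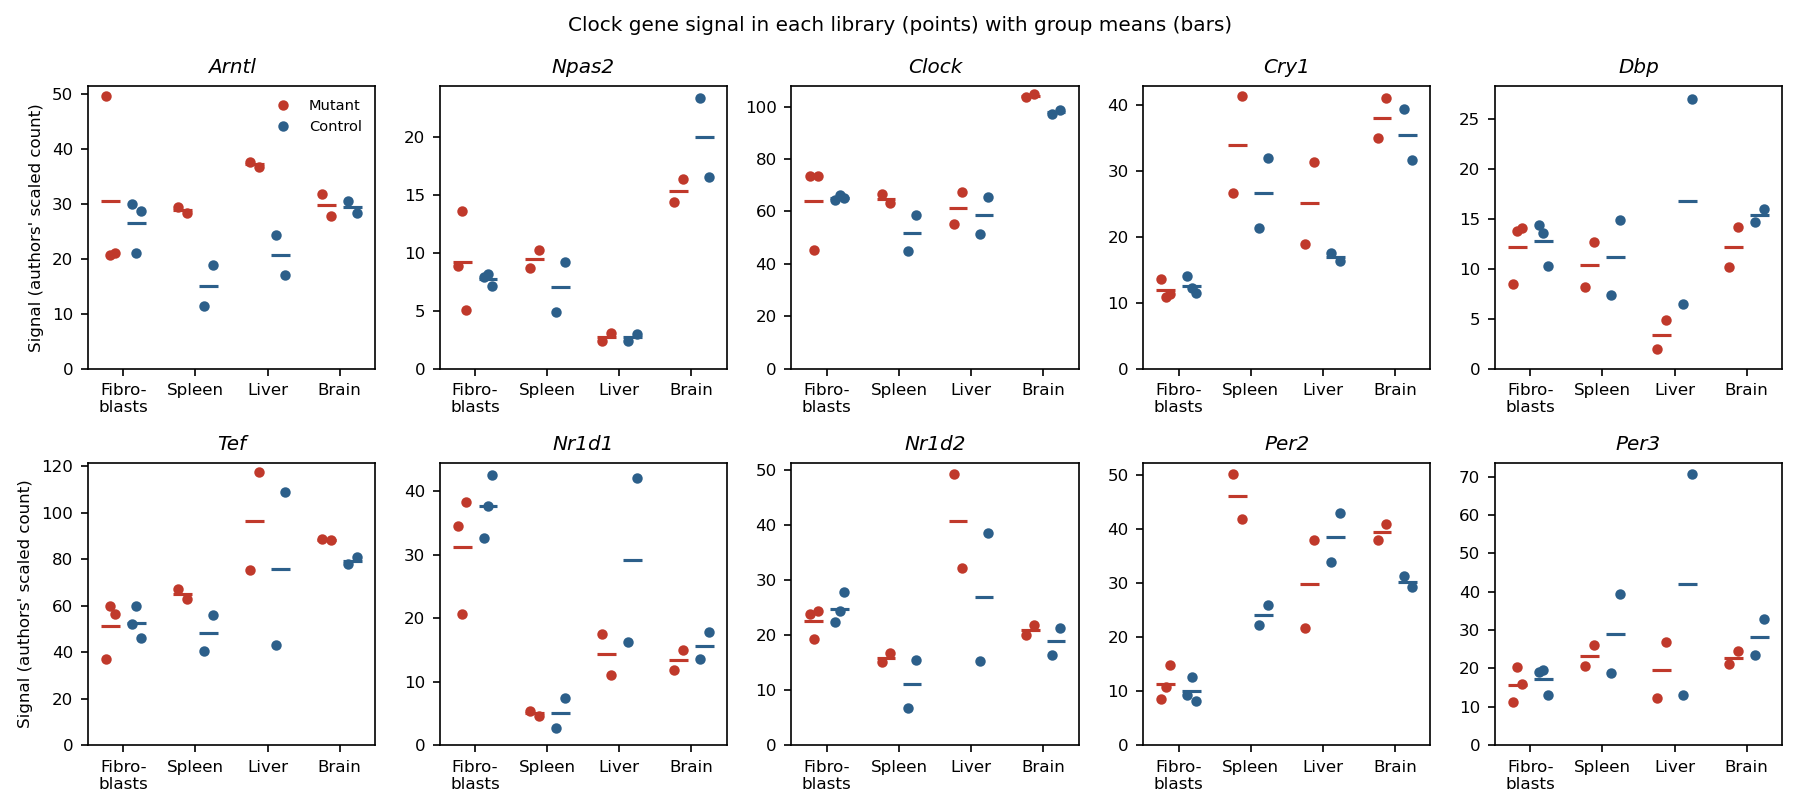
Signal of each clock gene (vertical axis, linear scale, authors' scaled count) in each library, with mutants in red to the left of controls in blue within each tissue. Liver control 2 is the highest liver library for Dbp at 27.0 and for Per3 at 70.7, and Per2 is higher in both mutant spleens and both mutant brains than in their controls.

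The members were unequally spread over the tissues, and the levels below were set across tables that the authors normalised separately. Neighbours in an order are called apart where their mean ± SD ranges do not meet. Npas2, the forebrain-rich partner of ARNTL, averaged 15.3 ± 1.40 in mutant brains against 19.9 ± 4.79 in control brains (SD, n = 2 each), and 2.69 ± 0.511 in mutant livers against 2.68 ± 0.366 in control livers. Brain was highest and liver lowest for Npas2 in both genotypes, 5.69-fold apart in mutants and 7.45-fold apart in controls, with fibroblasts and spleen between and not apart from each other. Clock averaged 104.2 ± 0.947 in mutant brains and 97.9 ± 1.21 in control brains, above the other 3 tissues in both genotypes. Cry1 ran in the order brain, spleen, liver and fibroblasts in both genotypes, with brain and spleen not apart in either and spleen and liver not apart in mutants. In mutants Arntl differed least, by 1.29-fold between its highest and lowest tissue. In controls it differed by 1.95-fold, and Dbp differed least, by 1.51-fold. No neighbours of Arntl were apart in either genotype.

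On the Dbp side, Nr1d1 (REV-ERBα) was highest in fibroblasts, at 31.2 ± 9.27 in mutants and 37.6 ± 4.96 in controls (SD, n = 3 each). It was lowest in spleen, at 4.98 ± 0.602 in mutants and 5.01 ± 3.38 in controls (SD, n = 2 each), with liver and brain between. Fibroblasts and liver were not apart in controls, and liver and brain were not apart in either genotype. Nr1d2 (REV-ERBβ) was likewise lowest in spleen, although among controls no neighbours were apart. Per2 was lowest in fibroblasts, at 11.3 ± 3.18 in mutants and 10.01 ± 2.35 in controls. In controls Per2 ran in the order liver, brain, spleen and fibroblasts, all apart, and in mutants spleen stood first, at 46.0 ± 5.91, with spleen, brain and liver not apart. Per length of exon, Cry1 had the highest mean in brain with 11.4 ± 1.30 per kb in mutants and 10.6 ± 1.64 per kb in controls. Tef followed with 11.2 ± 0.0133 per kb in mutants and 10.1 ± 0.301 per kb in controls. Cry1 and Tef were not apart in either genotype. In fibroblasts Nr1d1 led with 10.1 ± 3.01 per kb in mutants and 12.2 ± 1.61 per kb in controls. In mutants it was not apart from Tef, at 6.49 ± 1.58 per kb.

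Mutants were then compared with controls within each tissue. No member passed limma at an adjusted p of 0.05 in any tissue. The deleted gene Xist passed limma in brain (adjusted p = 1.5e-08). It did not pass limma in fibroblasts (adjusted p = 0.9997), spleen (0.14) or liver (0.45). A gene that differed between the groups could thus go without a call. Among all genes tested, limma called 0% in fibroblasts, 0% in spleen, 0% in liver and 0.0237% in brain. At an unadjusted p under 0.05, limma gave 0 members in fibroblasts, 2 in spleen (Arntl and Per2), 2 in liver (Arntl and Dbp) and 1 in brain (Per2). Over all genes tested in those tissues it gave 127 of 13077, 1039 of 16578, 1006 of 15075 and 688 of 16909. DESeq2 on the recovered reads called 0 members in each tissue, where it called 0.023%, 1.12%, 1.4% and 0.242% of all genes, and edgeR's quasi-likelihood test also called 0 members in each tissue, where it called 0%, 0%, 0% and 0.0237% of all genes. All tests were two-sided. In organ samples, fewer cells of a type and less RNA per cell cannot be told apart.

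**Figure D2:**
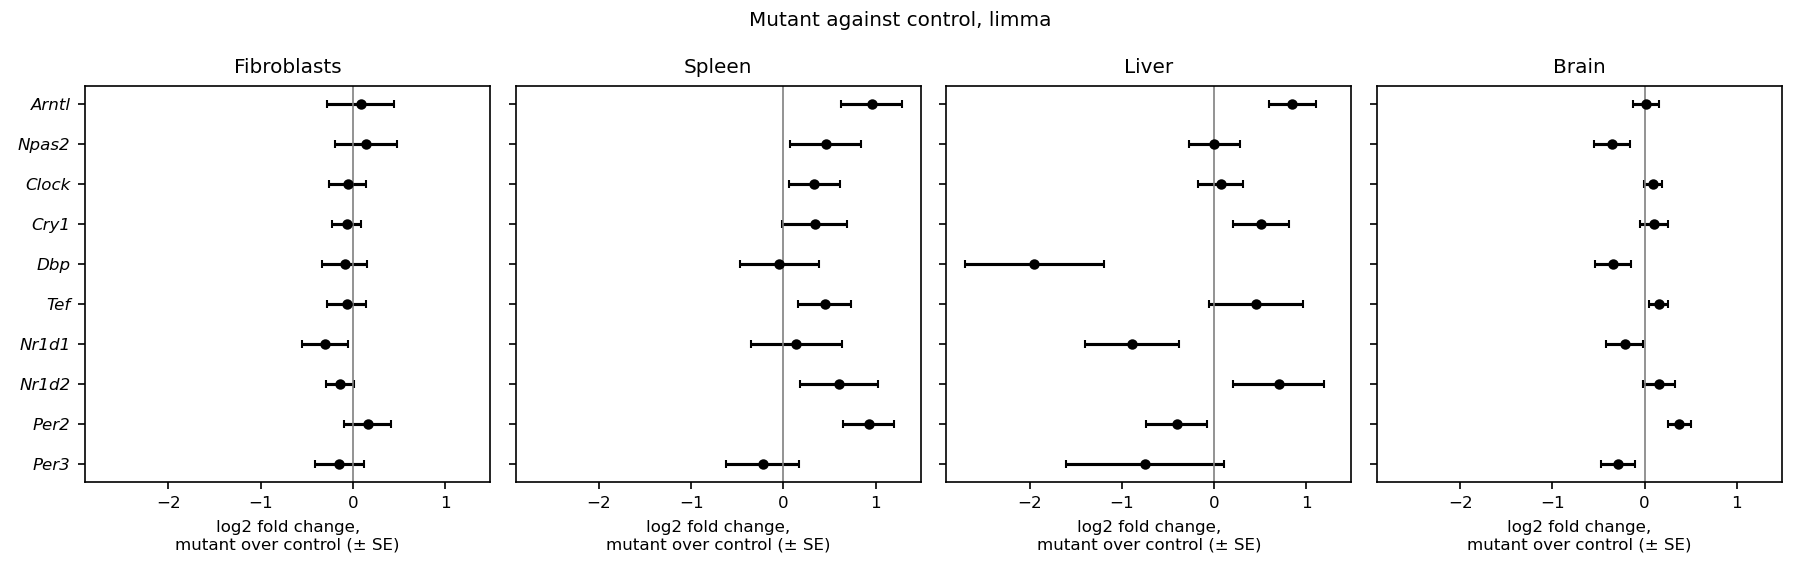
log2 fold change of each clock gene, mutant over control, from limma on log2(signal + 0.5) in each tissue, with bars of 1 SE. Dbp in liver lies farthest from 0 at -1.95, Arntl lies above 0 in spleen and liver, and all 10 genes lie between -0.31 and 0.16 in fibroblasts.

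In liver, Arntl and Cry1 were higher in both mutants than in both controls and Dbp was lower in both, while the other 7 members overlapped. Of all genes tested in liver, 23.5% had every mutant above every control and 13.1% every mutant below, so these shares of the members were near the background. The median log2 fold change of the 10 members was 0.04, beside 0.05 over all genes tested.

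Arntl, the obligate partner of CLOCK and NPAS2, had a signal of 37.5 and 36.7 in the mutant livers, against 24.4 and 17.005 in the control livers. The mutants lay close together and above both controls, 1.79-fold higher on average (log2 fold change 0.85, SE 0.25, limma adjusted p = 0.67). Its log2 fold change was 0.60 without control 2 and 1.10 without control 1. Cry1, the repressor that acts late in the cycle, had 18.9 and 31.4 in mutants, against 17.6 and 16.3 in controls. Mutant 2 supplied most of that gap: the log2 fold change of 0.51 (SE 0.30, limma adjusted p = 0.84) was 0.15 without it. Clock had 55.3 and 67.6 in mutants, against 51.5 and 65.6 in controls, and Npas2 had 2.33 and 3.05 in mutants, against 2.42 and 2.93 in controls. Both genotypes spanned the same range for these partners of ARNTL.

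Dbp, a PAR bZIP activator of liver output genes with a wide daily swing in adult liver, had a signal of 1.90 and 4.87 in the mutant livers, against 6.49 and 27.0 in the control livers. These values rest on 40 and 142 reads in mutants and on 102 and 672 reads in controls. Both mutants lay below both controls (log2 fold change -1.95, SE 0.76, adjusted p = 0.75 by limma; -2.34 and adjusted p = 0.072 by DESeq2; adjusted p = 0.68 by edgeR). The controls themselves differed 4.16-fold, and without control 2 the limma log2 fold change was -0.96. Dbp shares 539 exon bases, 18.01% of its exon length, with Sphk2 on the opposite strand, and no source used here says if reads were counted by strand.

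Liver control 2 was the highest liver library for several genes of the Dbp side. Per3, a PER family member dispensable for the core rhythm, had 12.1 and 26.9 in mutants, against 13.2 and 70.7 in controls. Nr1d1 had 17.5 and 11.0 in mutants, against 16.3 and 42.0 in controls. Control 1 lay within the range of the mutants for both genes, so their log2 fold changes of -0.75 (SE 0.85) and -0.89 (SE 0.51) became 0.45 and -0.22 without control 2. Per2 had 21.7 and 38.0 in mutants, against 33.9 and 43.0 in controls. Its groups overlapped and its log2 fold change was -0.41 (SE 0.34). Nr1d1 shares 263 exon bases, 8.55% of its exon length, with Thra on the opposite strand.

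Unlike Dbp, Tef and Nr1d2 were not lower in both mutant livers than in both control livers. Tef, a PAR bZIP factor of the same family, had 75.2 and 117.5 in mutants, against 42.9 and 108.9 in controls. Nr1d2 had 49.2 and 32.3 in mutants, against 15.3 and 38.5 in controls. Control 1 was the lowest liver library for both genes, and the groups overlapped, with log2 fold changes of 0.46 (SE 0.51) for Tef and 0.70 (SE 0.49) for Nr1d2. Without control 1 these became -0.21 for Tef and 0.05 for Nr1d2. Nr1d1 and Nr1d2, which encode receptors for the same sites, thus had fold changes of opposite sign in liver. Within each genotype, Tef was higher in the liver with the higher Dbp. For Nr1d2 this held in controls but not in mutants.

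Cell type markers of the livers were read beside these values. The 6 hepatocyte markers summed to 105774 to 130269 in mutants and 108468 to 131313 in controls. Among them Fgb was higher in both mutants, at 128% of the control level on average. Ttr was lower in both, at 48.5%, and the other 4 overlapped. Erythroid markers, from the blood-forming cells of the newborn liver, summed to 9340 and 4135 in mutants and to 7181 and 2656 in controls, and the 4 proliferation markers to 1943 and 866 in mutants and to 1720 and 653 in controls. Control 2, the library with the highest Dbp and Per3, thus had the lowest sums of both lists. Fibroblast markers were higher in both mutants for 5 of 6 genes (395 to 446 in mutants, 278 to 335 in controls), and endothelial markers for 3 of 3 (310 to 314 in mutants, 215 to 284 in controls). The part of these cells in the clock gene values was not tested.

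In spleen, Arntl, Clock, Tef and Per2 were higher in both mutants than in both controls and the other 6 members overlapped. Of all genes tested in spleen, 18.3% had every mutant above every control and 21.9% every mutant below, a case that no member met. The median log2 fold change of the members was 0.39, beside -0.07 over all genes tested.

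Per2, the PER protein that carries much of the negative feedback, had a signal of 50.2 and 41.8 in the mutant spleens, against 22.1 and 25.9 in the control spleens. All mutant values exceeded all control values, 1.92-fold on average (log2 fold change 0.92, SE 0.28; adjusted p = 0.70 by limma and 0.23 by DESeq2). The log2 fold change of Per2 stayed between 0.79 and 1.05 when any 1 spleen library was left out, 0.79 without mutant 1. Arntl had 29.4 and 28.2 in mutants, against 11.3 and 18.8 in controls. The mutants lay 1.91-fold above the controls (log2 fold change 0.96, SE 0.33, adjusted p = 0.76 by limma and 0.35 by DESeq2), 0.93 on the log2 scale without mutant 1 and 0.60 without control 1. Arntl and Per2 stand on opposite sides of the loop, and both were higher in the mutant spleens.

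Clock had 66.5 and 63.3 in mutant spleens, against 44.9 and 58.7 in control spleens. Tef had 67.1 and 62.9 in mutants, against 40.5 and 55.8 in controls. In both genes control 1 was the lowest library by a wide margin, and the log2 fold changes of 0.34 (SE 0.28) for Clock and 0.45 (SE 0.29) for Tef were 0.14 and 0.22 without it. Nr1d2 had 15.0 and 16.8 in mutants, against 6.76 and 15.4 in controls. Its log2 fold change of 0.61 (SE 0.42) was 0.04 without control 1.

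The remaining spleen members followed the same library. Cry1 had 26.7 and 41.4 in mutants, against 21.4 and 32.0 in controls. Npas2 had 8.71 and 10.2 in mutants, against 4.89 and 9.18 in controls. Nr1d1 had 5.41 and 4.56 in mutants, against 2.62 and 7.39 in controls. Control 1 was the lowest spleen for each of these 3 genes, and no member was above its spleen mean there. Dbp had 8.11 and 12.7 in mutants, against 7.38 and 14.8 in controls, and Per3 had 20.7 and 26.0 in mutants, against 18.8 and 39.3 in controls. For both, the controls enclosed the mutants and the log2 fold changes were -0.04 (SE 0.43) and -0.23 (SE 0.40).

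Spleen control 1 also carried the highest sums of erythroid and proliferation markers. Erythroid markers summed to 5672 and 7863 in mutants and to 16290 and 7637 in controls, and 4 of 6 were lower in both mutants. Proliferation markers summed to 2221 and 1883 in mutants and to 6801 and 2417 in controls, and 3 of 4 were lower in both mutants. Fibroblast markers were higher in both mutants for 6 of 6 genes (1991 to 3224 in mutants, 1205 to 1512 in controls), and endothelial markers for 3 of 3 (642 to 863 in mutants, 418 to 576 in controls). Pancreatic enzyme markers, from a neighbouring organ, summed to 7.36 and 1967 in mutants and to 323 and 8.71 in controls. The part of cell makeup in the clock gene values was not tested.

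In brain, Per2, Tef and Clock were higher in both mutants and Npas2 and Dbp lower in both, while 5 members overlapped. Of all genes tested in brain, 13.8% had every mutant above every control and 16.3% every mutant below. The members' median log2 fold change was 0.05, beside -0.01 over all genes tested. Per2 had a signal of 37.9 and 40.8 in the mutant brains, against 31.2 and 29.2 in the control brains. The gap between the genotypes exceeded the gap within each (1.30-fold on average; log2 fold change 0.38, SE 0.13, limma adjusted p = 1.00). Tef had 88.5 and 88.3 in mutants, against 77.7 and 81.1 in controls, and Clock had 103.5 and 104.9 in mutants, against 97.1 and 98.8 in controls. These replicates lay within a few percent of each other, with log2 fold changes of 0.15 (SE 0.10) for Tef and 0.09 (SE 0.10) for Clock.

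Npas2 had 14.3 and 16.3 in the mutant brains, against 23.3 and 16.5 in the control brains. Mutant 2 and control 2 were nearly level, and the log2 fold change was -0.35 (SE 0.19), or -0.11 without control 1. Dbp had 10.1 and 14.1 in mutants, against 14.7 and 15.99 in controls, with a log2 fold change of -0.34 (SE 0.20), or -0.11 without mutant 1. Per3 had 21.1 and 24.5 in mutants, against 23.5 and 32.9 in controls, and Nr1d1 had 11.8 and 15.0 in mutants, against 13.49 and 17.8 in controls. Both groups overlapped in these 2 genes. Arntl had 31.7 and 27.8 in mutants, against 30.5 and 28.3 in controls, and Cry1 had 35.0 and 41.1 in mutants, against 39.4 and 31.7 in controls. Nr1d2 had 20.02 and 21.8 in mutants, against 16.3 and 21.3 in controls. In these 3 genes too, the genotypes overlapped. Neuron markers were lower in both mutant brains for 3 of 5 genes, and macrophage markers for 2 of 3. Choroid plexus markers summed to 22.3 and 13.2 in mutant brains and to 5.02 and 17.2 in control brains, lowest in control 1. The part of these cells in the brain values was not tested.

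In fibroblasts no member had separate groups, beside 2.07% of all genes tested with every mutant above every control and 1.65% with every mutant below. The members' log2 fold changes ran from -0.31 to 0.16 with a median of -0.07, beside -0.00 over all genes, and none had an unadjusted p under 0.05. Mutant 1 stood apart among these cultures. Arntl had 49.5, 20.7 and 21.0 in mutants, against 29.8, 21.1 and 28.6 in controls, with mutant 1 highest. Dbp had 8.49, 13.8 and 14.1 in mutants, against 14.3, 13.6 and 10.2 in controls, with mutant 1 lowest. Tef had 36.9, 59.8 and 56.5 in mutants, against 52.2, 59.6 and 46.2 in controls, and Per3 had 11.2, 20.3 and 15.8 in mutants, against 19.1, 19.6 and 13.1 in controls. Mutant 1 was again the lowest library for both. Cry1 had 13.7, 10.9 and 11.4 in mutants, against 14.1, 12.3 and 11.4 in controls. Nr1d2 had 23.9, 19.4 and 24.4 in mutants, against 22.3, 24.3 and 27.8 in controls. Per2 had 8.49, 10.7 and 14.8 in mutants, against 9.17, 12.7 and 8.19 in controls. For Cry1, Nr1d2 and Per2, mutant 1 was neither the highest nor the lowest library.

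Mutant 2 differed from the other cultures in another way. Npas2 had 8.86, 13.6 and 5.06 in mutants, against 7.86, 8.12 and 7.08 in controls, with mutant 2 highest. Clock had 73.4, 45.4 and 73.4 in mutants, against 64.2, 66.2 and 65.1 in controls, with mutant 2 lowest. Nr1d1 had 34.4, 20.7 and 38.4 in mutants, against 32.6, 37.7 and 42.5 in controls, again with mutant 2 lowest. For Arntl, Npas2 and Clock the mutant cultures varied more among themselves than the controls, with a highest to lowest ratio of 2.39, 2.68 and 1.62 in mutants and of 1.42, 1.15 and 1.03 in controls. Proliferation markers summed to 192, 590 and 309 in mutants and to 425, 354 and 206 in controls, lowest in mutant 1 and highest in mutant 2. All 6 fibroblast markers were present (summed level 20300 to 29662 in mutants and 17966 to 18579 in controls), no hepatocyte marker reached a signal of 1, and Apoa1, Serpina1a, Fgb and Ahsg were at 0. The part of growth state in the clock gene values was not tested.

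The balance between the sides was computed for each library as the mean log2(signal + 0.5) of Arntl, Npas2, Clock and Cry1 minus that of Dbp, Tef, Nr1d1, Nr1d2, Per2 and Per3. A higher value means more of the Arntl side. It has no test, since the members were chosen with results known. In liver the balance was -0.03 and -0.12 in mutants, against -0.18 and -1.63 in controls. Mutant 1, mutant 2 and control 1 lay close together, and control 2 lay far below them. The mean difference of 0.83 in liver was 0.10 without control 2 and 1.56 without control 1.

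The deviations of each side from its tissue mean showed which genes set the balance. In liver control 2 the Dbp side lay 0.96 above the liver mean, with 6 of 6 genes above it, and the Arntl side lay at -0.18. In liver control 1 the Dbp side lay at -0.49 and the Arntl side at -0.18, so that both sides were low. In liver mutant 2 the Arntl side lay 0.34 above the mean with 4 of 4 genes above it. Dbp, Per3 and Nr1d1 were the genes farthest above the liver mean in control 2, and both mutant livers were above control 1 on the Arntl side. Dbp and Per3 were also higher in replicate 2 than in replicate 1 in both genotypes of liver, spleen and brain. Between same-numbered livers, the log2 difference of Dbp, mutant minus control, was -1.54 for replicate 1 and -2.36 for replicate 2. That of Per3 was -0.11 and -1.38. What the replicate numbers stand for is not given, and their part was not tested.

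In spleen the balance was 0.44 and 0.53 in mutants, against 0.39 and 0.15 in controls. The mutants were the higher, by 0.21 on average, and both sides were higher in mutants, the Arntl side by 0.52 and the Dbp side by 0.31; the mean difference was 0.33 without control 1 and 0.097 without control 2. In spleen control 1 the Arntl side lay at -0.57 and the Dbp side at -0.58 from the spleen mean, with 0 of 10 members above it, so its balance was close to that of the other spleens. In brain the balance was 0.59 and 0.45 in mutants, against 0.75 and 0.31 in controls, a mean difference of -0.01 with the mutants between the controls. In fibroblasts it was 0.59, -0.08 and -0.43 in mutants, against 0.01, -0.29 and -0.00 in controls. Fibroblast mutant 1 and fibroblast mutant 3 were the highest and lowest of the 6 cultures. In fibroblast mutant 1, 4 of 4 genes of the Arntl side and 2 of 6 of the Dbp side lay above the tissue mean. The mean difference of 0.12 in fibroblasts was -0.16 without mutant 1.

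**Figure D3:**
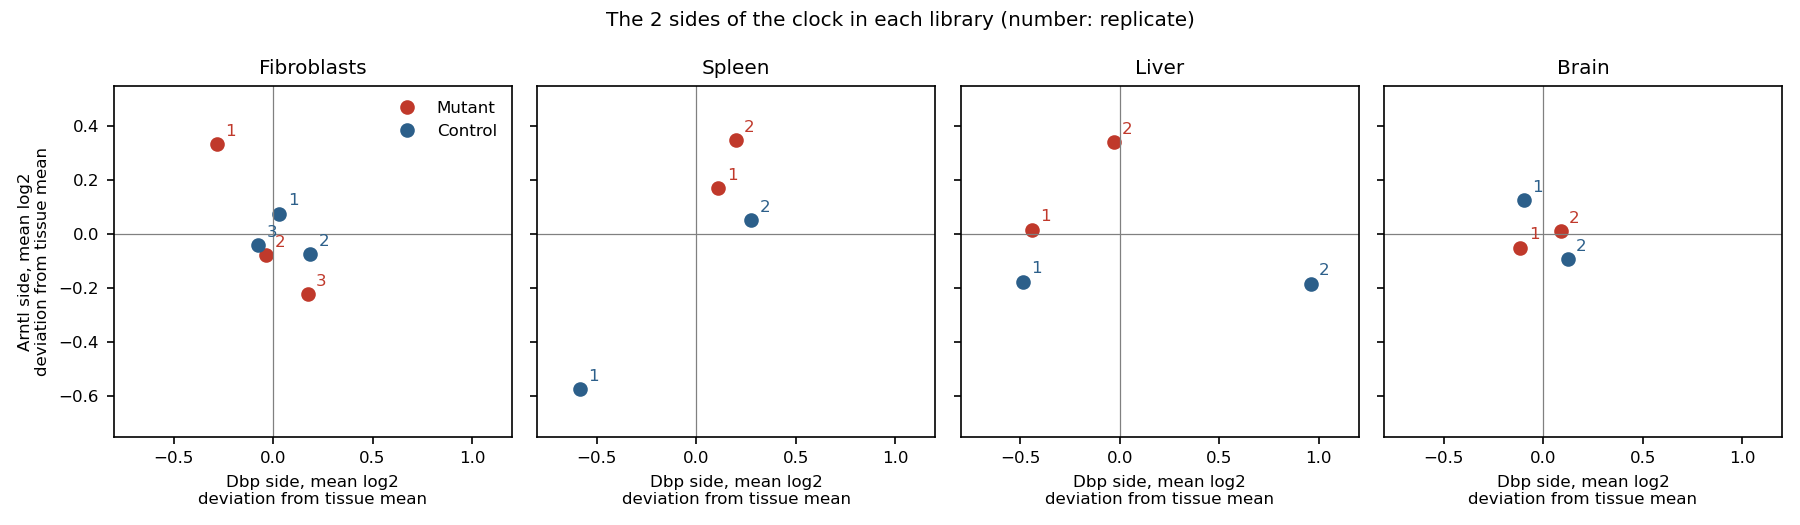
Mean log2 deviation of the Arntl side (vertical axis, 4 genes) and of the Dbp side (horizontal axis, 6 genes) from the tissue mean in each library, mutants in red and controls in blue, with replicate numbers. Liver control 2 lies to the right at 0.96 on the Dbp side, spleen control 1 lies low on both sides, and fibroblast mutant 1 lies high on the Arntl side at 0.34 and low on the Dbp side at -0.28.

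**Figure D4:**
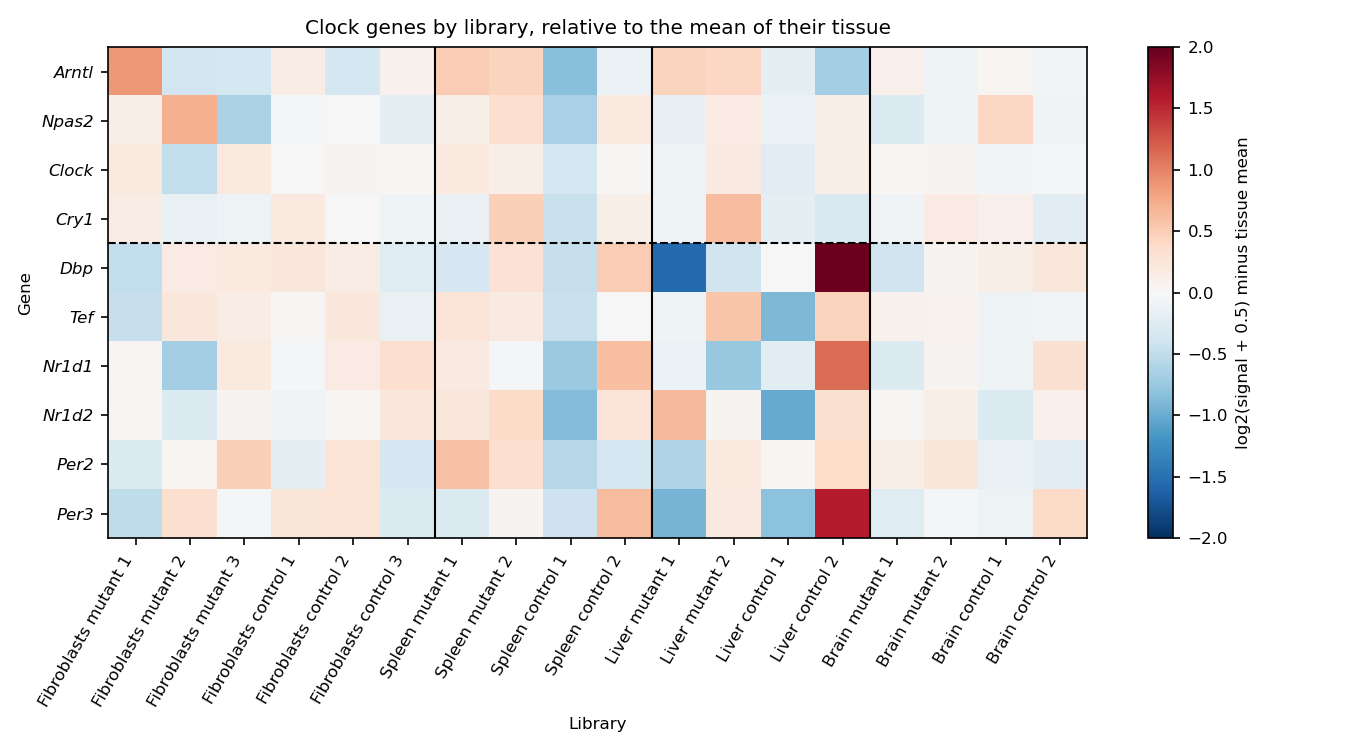
log2(signal + 0.5) of each clock gene minus the mean of its tissue (colour, red above and blue below) in each of 18 libraries, with the Arntl side above the dashed line and the Dbp side below it. Dbp and Per3 are darkest red in liver control 2, the column of spleen control 1 is blue throughout, and the brain columns are pale.

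How closely the members moved together was described by Pearson's r over the 18 libraries, after each gene was centred on its tissue mean. These points share libraries, depth and tissue composition, so no p is given, and each r is repeated over the 17 libraries without liver control 2, a choice made after seeing the data. Dbp and Per3 were the closest pair, with r of 0.88, and 0.67 without that library. Per3 with Tef gave 0.64 and 0.61, Nr1d2 with Tef 0.62 and 0.60, and Cry1 with Arntl 0.62 and 0.56. Across the sides, 18 of 24 pairs had an r above 0, and 20 of 24 without liver control 2. Nr1d2 with Clock gave 0.59 and 0.57, Nr1d1 with Clock 0.51 and 0.52, and Nr1d2 with Arntl 0.44 and 0.61. The lowest were Dbp with Arntl at -0.51 and Per3 with Arntl at -0.43, and these became -0.30 and -0.16 without liver control 2. Nr1d1 with Dbp went with that library too, at 0.61 over 18 libraries and 0.15 over 17. These pairs were picked with their values in view.

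Among 11439 genes tested in all 4 tissues, those whose centred level was most like the balance were ranked by the same r. The highest were Map1lc3b at 0.80, Ubl7 at 0.80, Tbpl1 at 0.79, Trit1 at 0.76 and Mxi1 at 0.76, and the lowest were Ano8 at -0.88, Synj2 at -0.86, Aars2 at -0.85, A130010J15Rik at -0.83 and Eci1 at -0.83. Without liver control 2, r was 0.31 for Map1lc3b, 0.77 for Ubl7, 0.66 for Tbpl1, 0.69 for Trit1 and 0.72 for Mxi1. It was -0.63 for Ano8, -0.66 for Synj2, -0.61 for Aars2, -0.41 for A130010J15Rik and -0.52 for Eci1. These genes were picked as the extremes of the ranking. The 17 libraries are among the 18 that ranked them, so the second r is no separate support.

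The other genes of the loop were read from lists chosen with earlier results of these data known. Among them Per1, the PER gene that responds most quickly to outside signals, differed most between genotypes in the organs. Per1 had a signal of 395 and 196 in the mutant spleens, against 56.7 and 88.9 in the control spleens (log2 fold change 1.96, SE 0.42; adjusted p = 0.44 by limma and 7.1e-04 by DESeq2). Its log2 fold change there was 1.46 without mutant 1 and 1.64 without control 1. In liver Per1 had 204 and 152 in mutants, against 24.8 and 57.2 in controls (log2 fold change 2.21, SE 0.45; adjusted p = 0.51 by limma and 0.0015 by DESeq2). In brain Per1 had 78.4 and 61.9 in mutants, against 47.0 and 51.1 in controls (log2 fold change 0.50, SE 0.14; adjusted p = 0.88 by limma and 0.38 by DESeq2), and the log2 fold change was 0.33 without mutant 1. All mutant organs were above all controls of their tissue, and Per1 passed DESeq2 in spleen and liver without passing limma. In fibroblasts Per1 had 33.4, 39.2 and 34.1 in mutants, against 28.4, 36.8 and 31.0 in controls, and the groups overlapped.

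Cry2, the paralogue of Cry1, had 177 and 90.4 in mutant livers, against 29.7 and 46.2 in control livers (log2 fold change 1.76, SE 0.41; adjusted p = 0.58 by limma and 0.013 by DESeq2), and the log2 fold change was 1.28 without mutant 1. Hlf, the third PAR bZIP factor beside Dbp and Tef, had 12.5 and 27.4 in mutant livers, against 41.7 and 46.6 in control livers (log2 fold change -1.23, SE 0.40; adjusted p = 0.70 by limma and 0.24 by DESeq2). Without mutant 1 the log2 fold change of Hlf was -0.68. Hlf was close in both controls, where Dbp differed 4.16-fold between them. In spleen Nfil3, which represses D-box genes, had 46.4 and 25.4 in mutants, against 13.2 and 20.3 in controls, and Rora, the activator at ROR elements, had 25.8 and 22.0 in mutants, against 9.65 and 15.8 in controls. Both genes were higher in both mutants, with log2 fold changes of 1.05 (SE 0.39) and 0.92 (SE 0.34), and neither passed limma or DESeq2. Nfil3 was at 0.62 without mutant 1, and Rora at 0.58 without control 1.

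Of the other core loop genes with enough signal to be tested, 0 of 10 were higher and 1 was lower in all fibroblast mutants, 5 of 10 were higher and 0 lower in spleen, 5 of 9 higher and 2 lower in liver, and 2 of 10 higher and 2 lower in brain. Among all genes tested, the shares higher and lower were 2.07% and 1.65% in fibroblasts, 18.3% and 21.9% in spleen, 23.5% and 13.1% in liver, and 13.8% and 16.3% in brain, so the brain counts lay near the background. The list's median log2 fold changes were 0.09 in fibroblasts, 0.54 in spleen, 0.69 in liver and 0.04 in brain. Of the genes for modifiers of clock proteins, 0 of 11 were higher and 0 lower in all fibroblast mutants, 3 of 11 higher and 2 lower in spleen, 6 of 12 higher and 1 lower in liver, and 2 of 12 higher and 0 lower in brain. Ppargc1a, a coactivator at ROR elements, had 218 and 146 in mutant livers, against 27.4 and 44.3 in control livers (log2 fold change 2.34, SE 0.35; adjusted p = 0.34 by limma and 4.7e-06 by DESeq2). Of the rhythmic output genes, 0 of 7 were higher and 0 lower in all fibroblast mutants, 1 of 8 higher and 2 lower in spleen, 4 of 8 higher and 1 lower in liver, and 0 of 8 higher and 1 lower in brain. Usp2 had 11.8 and 16.1 in mutant spleens, against 6.07 and 8.89 in control spleens, so it was higher in both mutants. Its log2 fold change ran from 0.61 to 1.12 when 1 spleen library was left out. Noct, which encodes the rhythmic enzyme nocturnin, had 18.3 and 20.9 in mutant spleens, against 54.0 and 26.7 in control spleens (log2 fold change -0.94, SE 0.38, adjusted p = 0.78 by limma and 0.37 by DESeq2), or -0.44 without control 1. Por, the electron donor of the cytochromes P450, had 1456 and 1754 in mutant livers, against 770 and 806 in control livers (log2 fold change 1.02, SE 0.30; adjusted p = 0.67 by limma and 0.043 by DESeq2). No gene of these 3 lists passed limma in any tissue.

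**Figure D5:**
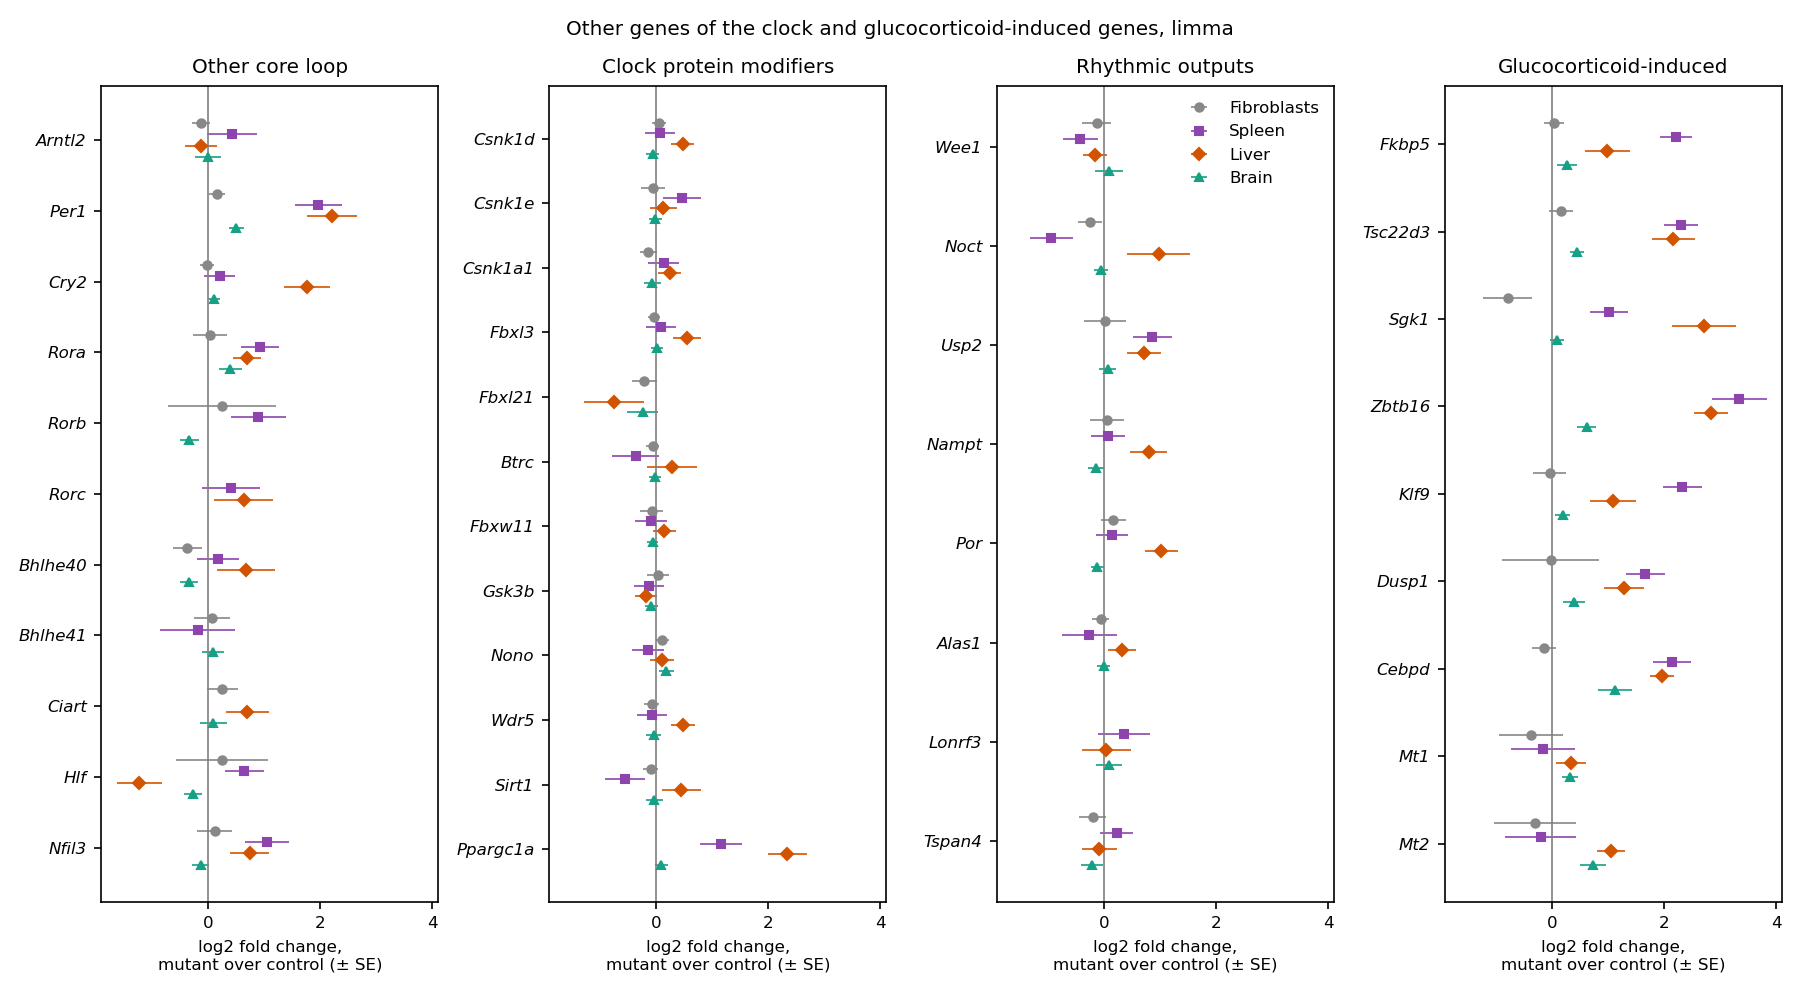
log2 fold change, mutant over control, with 1 SE from limma, of other core loop genes, clock protein modifiers, rhythmic output genes and glucocorticoid-induced genes in each tissue. Per1 lies near 2 in spleen and liver, Cry2 lies at 1.76 in liver, and of the glucocorticoid-induced genes 7 of 9 in spleen and 9 of 9 in liver lie to the right of 0.

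Per1 is also a known target of the glucocorticoid receptor, and genes induced by glucocorticoids were read beside it. Of those tested, 0 of 8 were higher in all fibroblast mutants, 7 of 9 in spleen, 9 of 9 in liver and 7 of 9 in brain. Among all genes tested these shares were 2.07%, 18.3%, 23.5% and 13.8%. The list's median log2 fold changes were -0.09, 2.14, 1.29 and 0.40, and limma called none of its genes. DESeq2 called 0, 6, 4 and 0 of the list in those tissues, beside 0.023%, 1.12%, 1.4% and 0.242% of all genes. In spleen Mt1 and Mt2 averaged 74.5% and 68.1% of the control level in mutants, with overlapping groups. Zbtb16 had 326 and 154 in mutant spleens, against 14.7 and 31.4 in the controls, and 211 and 145 in mutant livers, against 20.03 and 28.9 in control livers. The part of these genes' inducer in the values of Per1 or of the 10 members was not tested.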

How the data were processed

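RNA was extracted with Trizol and rid of ribosomal RNA, per the labels' protocols, and read at a length of 50 nt, per the series' design text. Per the submitters' processing notes, HTSeq 0.6.1 counted reads per gene and edgeR normalised them, on GRCm38 (mm10). The sources used here leave out the aligner, the annotation release and the strand setting. The deposited values are signal, the authors' scaled count, in 4 tables normalised separately. In every column 100% of values were whole multiples of the value of 1 read (tolerance 0.05), so whole reads were recovered. A count of 0 allows up to 3 reads (95% confidence, counting error only), which is a signal of 0.103 to 0.225.

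The members and the other lists were chosen with earlier results of these data known. GENCODE (GRCm38) named 45143 identifiers; the 935 without a name took at most 0.179% of the reads of any library and were not tested. For each tissue, mutants were compared with controls on log2(signal + 0.5) by limma 3.58.1 (R 4.3.3, eBayes with a trend), over genes whose mean signal in the table reached 1, with Benjamini-Hochberg adjustment at 0.05. The recovered reads were also tested with DESeq2 1.42.0, which called 3 genes in fibroblasts, 182 in spleen, 211 in liver and 41 in brain. On them edgeR 4.0.16 (quasi-likelihood) called 4 genes in brain and 0 elsewhere. The limma fit alone was also run on simulated counts, and its outcome there is not given here. Those counts were drawn independently for each gene, so shifts shared by many genes of a library were not covered. Fold changes on the log2(signal + 0.5) scale understate the change of low genes. Other alternatives were pseudocounts of 1 and 0.1, no filter, a minimum mean of 5, scaling to library totals, a replicate block and leaving out each library. Named genes are all 10 members and, of each other list, up to 3 with the smallest p per tissue. Promoters came from RefSeq, GRCm38.p6.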

Additional observations from a re-analysis of the deposited data

How the results depend on the processing

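No member passed the threshold in any tissue under any alternative, with a lowest adjusted p of 0.97 in fibroblasts, 0.078 in spleen, 0.072 in liver and 0.34 in brain. A left-out library turned the sign of a member's log2 fold change in 26 of 180 cases, and another setting in 4 of 318. Those 4 were Dbp in spleen at 0.037 scaled to library totals, and Npas2 in liver at -0.012 scaled to library totals, -0.054 with DESeq2 and -0.048 with edgeR. When 1 library was left out, log2 fold changes in fibroblasts ran from -0.32 to 0.29 for Arntl, -0.18 to 0.49 for Npas2, -0.17 to 0.17 for Clock, -0.16 to 0.011 for Cry1, -0.23 to 0.14 for Dbp, -0.20 to 0.15 for Tef, -0.041 to 0.34 for Per2 and -0.34 to 0.07 for Per3. In spleen they ran from -0.53 to 0.44 for Dbp, -0.53 to 0.81 for Nr1d1 and -0.75 to 0.30 for Per3. In liver they ran from -0.16 to 0.17 for Npas2, -0.10 to 0.24 for Clock, -0.21 to 1.12 for Tef and -1.94 to 0.45 for Per3, and in brain from -0.077 to 0.11 for Arntl, -0.054 to 0.26 for Cry1 and -0.030 to 0.35 for Nr1d2. The cause was not tested.

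The number of all genes called was 0 in fibroblasts, spleen and liver and 4 in brain. It became 3, 182, 211 and 41 with DESeq2, and 22 in spleen, 11 in liver and 13 in brain with no filter. When 1 library was left out it ran from 0 to 173 in spleen (170 without mutant 1, 173 without mutant 2) and from 6 to 112 in brain (9 without mutant 1, 26 without mutant 2, 112 without control 2). Same-numbered libraries did not deviate together throughout (correlations of -0.08, 0.43 and 0.02 in fibroblasts, -0.03 in spleen, 0.58 in liver and 0.08 in brain), and neither the labels nor these values pair them in every tissue, so the block was not used for the values reported; in liver the same-numbered libraries did deviate together. With the replicate block limma called 356 genes in spleen and 60 in liver, and 0 members in every tissue. Xist passed the threshold with DESeq2 in fibroblasts at -3.53, in spleen at -3.73 and in liver at -1.67, with no filter in spleen at -3.90, and with the replicate block at -3.90 in spleen and -1.62 in liver. Its log2 fold change in spleen ran from -4.49 to -3.31 when 1 library was left out, and passed without mutant 1 or mutant 2.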
